A study of Macaca mulatta with 30 samples.

Results

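The parotid, the largest salivary gland, was compared with the pancreas in 6 rhesus macaques (Macaca mulatta). The compared libraries were those whose column names carry the parotid or the pancreas tag, and they were paired by animal number. They are 12 of the 30 RNA sequencing libraries of the study, 6 from parotid and 6 from pancreas, with 1 library of each tissue per animal. The other libraries came from the submandibular gland, the sublingual gland and the liver of the same animals. Total RNA was taken from thick sections of flash frozen tissue and sequenced as paired reads of 150 bases. Animals 1 to 4 were female and animals 5 and 6 male, and the labels name no treatment and no age. The library names give the left parotid for every animal except animal 3, for which they give the right. Values are TPM, transcript abundances corrected for length and given as shares of a fixed total in each library.

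Parotid and pancreas are both exocrine glands built largely of serous acinar cells, which fill granules with water-soluble proteins and release them into ducts on stimulation. The parotid secretes saliva with amylase, proline-rich proteins, carbonic anhydrase and antimicrobial proteins into the mouth. The pancreas secretes proenzymes for protein, fat and starch into the duodenum, and its islets secrete hormones into the blood. Acinar cells of both glands depend on a large rough endoplasmic reticulum and on calcium signals for granule release, whereas the salt and water that carry the proteins are moved by partly different channels.

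The composition of the libraries limits what can be compared. The 10 most abundant genes took 73.4 to 81.4% of all TPM in 5 parotid libraries and 38.8% in that of animal 6. In pancreas they took 37.1 to 49.6% in 5 libraries and 14.2% in that of animal 4. That pancreas library had the highest adipocyte marker sum of the 12 (26772 TPM over 13 genes, against 2585 TPM in the pancreas of animal 3 and 65.9 to 286 TPM in the other 10). Its red blood cell markers summed to 13969 TPM over 9 genes, against 56.7 to 469 TPM in the other 11. The parotid library of animal 6 held 130336 TPM of 17 skeletal muscle markers, the parotid of animal 1 held 9894 TPM, and the other 10 held 62.2 to 583 TPM. Islet markers summed to 137879 TPM in the pancreas of animal 3, mostly insulin, and to 749 to 13777 TPM in the other pancreas libraries. The effect of leaving out animal 4 or animal 6 is therefore given beside the results that moved with it. In whole tissue, fewer cells of a type and less RNA per cell cannot be told apart.

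**Figure D1:**
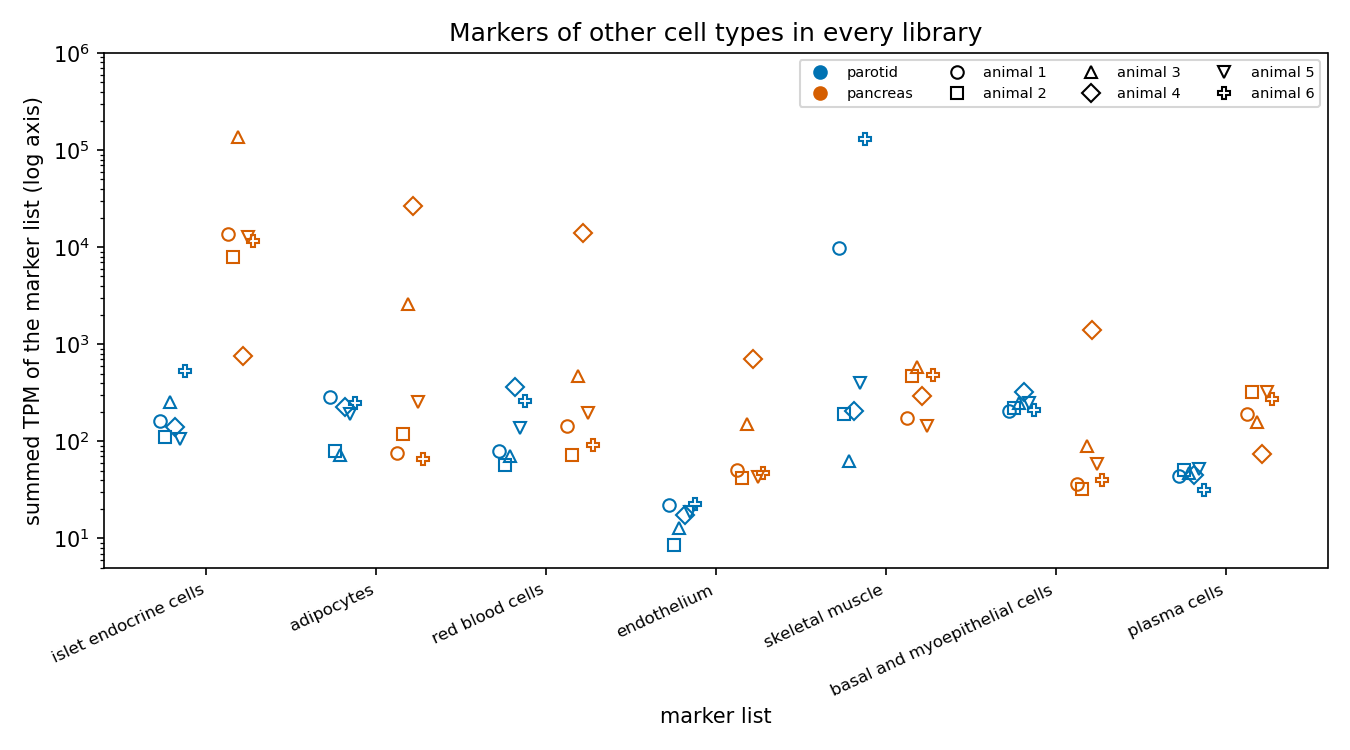
Summed TPM (log axis) of 7 marker lists for other cell types in each of the 6 parotid (blue) and 6 pancreas (orange) libraries, with 1 symbol per animal. The pancreas of animal 4 stands at 26772 TPM for adipocytes and 13969 TPM for red blood cells, the parotid of animal 6 at 130336 TPM for skeletal muscle, and the pancreas of animal 3 at 137879 TPM for islet cells.

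Of 10453 genes tested on log2(TPM + 1) with limma, 2000 (19.1%) passed an adjusted p-value of 0.05. Of these, 274 were higher in parotid, which is 2.62% of the genes tested, and 1726 were lower, which is 16.5%. The median log2 fold change (parotid minus pancreas, as throughout) over all genes was -0.54. Since a few parotid genes take most of that fixed total, the fit was repeated after scaling each library by a trimmed mean of its gene ratios, which moved the median to 0.04. It then called 1573 genes (15.0%), of which 809 were higher (7.74%) and 764 lower (7.31%), and 1038 of the 2000 calls remained in the same direction. Without the pair of animal 4, 348 genes were higher (3.33%) and 1530 lower (14.6%) as deposited, against 1140 higher (10.9%) and 1067 lower (10.2%) with scaling. Without the pair of animal 6, 315 genes were higher (3.01%) and 4222 lower (40.4%), 43.4% in all. Leaving out animal 1, 2, 3 or 5 in turn lowered the number called as deposited to 1046, 1227, 1043 and 1022. As deposited, 149 genes (1.43%) had all 6 parotid values above all 6 pancreas values, and 1081 (10.3%) had all below. Counts of lower genes thus depended on the scaling and on animal 6, and both versions are given for each group of genes below. A gene under 1 TPM in every library of one tissue could pass the filter on low values only through the other, which fixed its direction. There were 168 such genes low in parotid (1.61% of those tested) and 39 low in pancreas (0.373%), and list members of this kind are given as values, with no test. Members that only just reached 1 TPM in the lower tissue, such as CFTR, TCN1 and STIM2, were tested, but the filter nearly fixed their direction too.

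A large part of the parotid TPM came from 5 genes on chromosome 11 that carry identifiers in place of names. In the RefSeq gene table of the assembly T2T-MMU8v2.0 they lie in 2 clusters, LOC722360 and LOC107000764 on either side of the bitter taste receptor gene TAS2R13, and LOC107000768, LOC695018 and LOC114670789 in a row between TAS2R42 and ETV6. In the human genome this interval holds the genes for salivary proline-rich proteins. Together they took 49.8 to 74.1% of all TPM in the parotid of animals 1 to 5 and 23.0% in that of animal 6. They took 0.703 to 1.42% of the pancreas libraries.

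LOC114670789 had 87640, 188606 and 279863 TPM in parotid (lowest, median and highest of 6) and 2312, 3721 and 6159 TPM in pancreas. Every parotid library lay above every pancreas library, and the log2 fold change was 5.51 (95% interval 4.65 to 6.37, limma adjusted p = 8.28e-05). LOC107000768 showed the largest rise among abundant genes, with 32496, 48641 and 61138 TPM in parotid against 388, 561 and 799 TPM in pancreas. Its log2 fold change was 6.43 (5.67 to 7.19, adjusted p = 3.30e-05). LOC695018 and LOC722360 rose by 6.25 and 5.67 on the log2 scale, also with no overlap between the tissues.

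LOC107000764 varied between animals far more than its neighbours. Its parotid levels were 3251, 110632, 126135, 133374, 108559 and 1162 TPM in animals 1 to 6, and its pancreas levels 733 to 1866 TPM. Animal 6 thus lay within the pancreas range and animal 1 just above it, and the other 4 stood far higher. The log2 fold change was 4.42 (2.46 to 6.37, adjusted p = 0.00698). The parotid of animal 1, low for this gene, had the highest levels of LOC722360 (219049 TPM) and LOC114670789 (279863 TPM). How reads shared by such neighbouring genes were divided is not stated, so each single value is uncertain.

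Several other salivary proteins were also higher in parotid. Of 46 salivary secreted proteins listed, LOC114670789 above among them, 35 names were in the table and 30 passed the filter on low values. In parotid 15 of the 30 were higher and 2 lower as deposited, beside 2.62% and 16.5% of all tested genes. With scaling 18 were higher and 2 lower, beside 7.74% and 7.31%. The median log2 fold change of the 30 was 1.78, and 2.35 with scaling. Without animal 4, 17 were higher and 3 lower as deposited, beside 3.33% and 14.6% of all tested genes.

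SMR3B, a proline-rich submaxillary gland protein, had 21108, 63471 and 196684 TPM in parotid and 1333, 2304 and 3371 TPM in pancreas. The groups did not overlap, and the log2 fold change was 4.97 (3.92 to 6.03, adjusted p = 0.000200). Parotid levels of SMR3B spread widely, with 191028 and 196684 TPM in animals 2 and 3 and the lowest value in animal 5. SMR3A, its neighbour, had 39.3 to 127 TPM in parotid against 0.994 to 44.5 TPM in pancreas, with a log2 fold change of 2.78 (adjusted p = 0.0100).

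BPIFA2, the parotid secretory protein of the BPI fold family, had 19294, 30807 and 74909 TPM in parotid and 786, 1326 and 1701 TPM in pancreas. It rose by 4.86 on the log2 scale (3.98 to 5.73, adjusted p = 0.000103). CST5, the salivary cystatin D that inhibits cysteine proteases, had 2795 to 7180 TPM against 83.6 to 189 TPM and rose by 4.89 (4.16 to 5.62, adjusted p = 8.28e-05). Neither gene overlapped between the tissues.

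Enzymes of saliva followed. CA6, the secreted carbonic anhydrase of saliva, had 2358, 3498 and 7984 TPM in parotid against 185, 286 and 568 TPM in pancreas, a log2 fold change of 3.82 (2.99 to 4.66, adjusted p = 0.000211). DNASE2B, an acid DNase, had 56.6 to 280 TPM against 1.67 to 7.60 TPM and rose by 4.63 (adjusted p = 0.000103). LPO, the peroxidase of saliva and milk, had 51.4 to 221 TPM against 3.23 to 9.07 TPM and rose by 4.28 (adjusted p = 0.000103). All 3 enzymes lay above the pancreas range in every parotid library.

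Lysozyme (LYZ), which cleaves bacterial cell walls, had 737, 1620, 2830, 1571, 190 and 429 TPM in the parotid of animals 1 to 6 and 28.9 to 210 TPM in pancreas. Animal 5 was the exception, with 190 TPM in parotid and 210 TPM in pancreas, and the log2 fold change was 3.30 (1.89 to 4.71, adjusted p = 0.00604). PRR27 and PRR4, both proline-rich proteins, rose by 4.85 and 4.22, with PRR4 ranging from 6.46 to 310 TPM between parotid libraries. CSN3 (kappa-casein, in the same gene neighbourhood as SMR3B) rose by 3.22, PIP by 2.10, OPRPN by 1.82 and WFDC2 by 1.51. The calls of the last 3 were not firm: PIP was lost in the fit of all 30 libraries (limma adjusted p = 0.0926), OPRPN without animal 2 (adjusted p = 0.0663), and WFDC2 without any 1 of animals 1, 2, 3 and 5 (adjusted p = 0.0629 to 0.0944).

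Other salivary genes did not follow. As deposited, 2 of the 30 tested were lower in parotid and 13 were not called. SLPI, a secreted inhibitor of leukocyte proteases, was lower in parotid, at 6.93, 13.1 and 35.6 TPM against 44.2, 74.4 and 113 TPM in pancreas. Its log2 fold change was -2.15 (-2.94 to -1.37, adjusted p = 0.00266), and the tissues did not overlap. With scaling it was -1.45 (adjusted p = 0.0464), and the call was lost when SLPI was taken relative to all but the 100 most abundant genes (adjusted p = 0.0567) and with scaling without animal 6 (adjusted p = 0.0870). TCN1, which binds vitamin B12 in saliva, had 0.133 to 1.01 TPM in parotid and 1.40 to 128 TPM in pancreas, a log2 fold change of -3.36 (adjusted p = 0.00689). Since its highest parotid value only just reached 1 TPM, the filter nearly fixed its direction. KLK1, the tissue kallikrein made by both glands, did not pass the test at -0.93 (adjusted p = 0.470). Its pancreas level was 1363 to 2239 TPM in 5 libraries and 55.9 TPM in that of animal 4, without which its log2 fold change was -2.23 (adjusted p = 0.00254), or -1.63 with scaling (adjusted p = 0.0750). MUC7 and ZG16B, whose values in the 2 tissues overlapped, did not pass (0.10 and 0.46), and their median levels in liver, 145 and 1848 TPM, were above those in both glands.

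**Figure D2:**
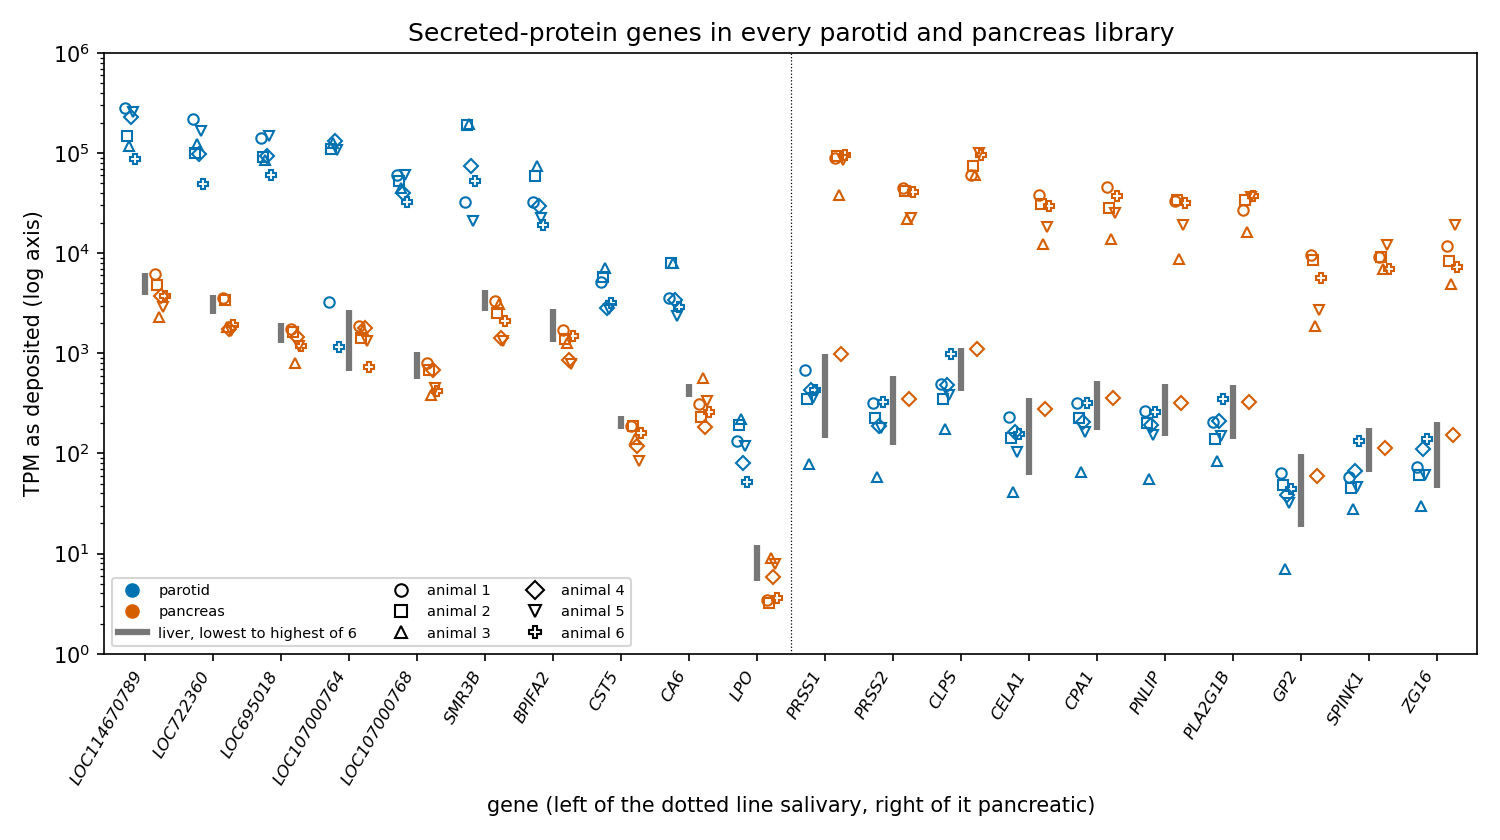
TPM (log axis) of 10 salivary and 10 pancreatic secreted-protein genes in each parotid (blue) and pancreas (orange) library, 1 symbol per animal, with the range of the 6 liver libraries in grey. Salivary genes in pancreas and pancreatic genes in parotid lie at about the level seen in liver, and the pancreas of animal 4 (diamonds) lies near the parotid values for every pancreatic gene drawn.

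The proteases and lipases of the pancreas were lower in parotid. All 10 proteases in the table and all 5 lipases and their cofactors were lower, under both scalings and with or without animal 4, as were 8 of the 10 granule and regenerating proteins tested. Among all tested genes, 16.5% were lower as deposited and 7.31% with scaling, and 14.6% and 10.2% without animal 4. The median log2 fold changes of these lists were -6.14, -6.30 and -5.97. Together the 15 enzymes took 25.3 to 51.2% of the TPM in 5 pancreas libraries, 0.539% in that of animal 4, and 0.0923 to 0.428% in parotid. With animal 4 left out the medians were -7.18, -7.43 and -7.01, so that pair reduced the size of the difference but not its direction.

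PRSS1, cationic trypsinogen, had 995 TPM in the pancreas of animal 4 and 38260 to 96195 TPM in the other 5, against 78.7, 397 and 686 TPM in parotid. Its log2 fold change of -6.80 (-8.73 to -4.88, adjusted p = 0.000647) was the largest fall among abundant genes. CELA1, a pancreatic elastase, fell by 6.51 on the log2 scale, CELA3B by 6.30, CTRC (chymotrypsin C, which regulates trypsinogen activation) by 6.16, CPA1 (a carboxypeptidase) by 6.12 and CTRB2 (chymotrypsinogen) by 5.87. For PRSS2 the parotid range of 58.3 to 329 TPM ended just below the 351 TPM of the pancreas of animal 4. For CTRC that library lay inside the parotid range, so the tissues overlapped through animal 4.

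Fat-digesting genes behaved alike. CLPS, colipase, which anchors lipase to fat droplets, was the most abundant at 1107, 67609 and 100414 TPM in pancreas and 174, 435 and 982 TPM in parotid. It fell by 6.48 (-8.32 to -4.64, adjusted p = 0.000655). PNLIP, pancreatic lipase, fell by 6.05, PNLIPRP1 by 6.17, PNLIPRP2 by 6.52 and PLA2G1B, the pancreatic phospholipase A2, by 6.30. PLA2G1B overlapped between the tissues through animal 4, and the other 4 did not.

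Among granule proteins, GP2, the major membrane protein of zymogen granules, had 59.2 TPM in the pancreas of animal 4 and 1857 to 9535 TPM in the other 5, against 6.97 to 64.4 TPM in parotid. The library of animal 4 lay inside the parotid range, and the log2 fold change was -6.07 (adjusted p = 0.000899). SPINK1, the trypsin inhibitor stored with the enzymes, fell by 6.21, ZG16, a zymogen granule lectin, by 6.02, and CUZD1 by 6.02. REG1A, a regenerating protein, fell by 4.91 from a pancreas median of 86.2 TPM. PDIA2 and ERP27, pancreatic members of the protein disulfide isomerase family, fell by 6.33 and 5.93, to parotid medians of 8.77 and 2.97 TPM. The 10 largest falls among abundant genes also held LOC114677048, which lies near PRSS1, LOC694691, which lies near CTRC, and LOC114677057 and LOC722291, at -6.51, -6.38, -6.59 and -6.35. Trypsinogen, elastase and lipase genes have near-identical copies, and how reads were divided among them is not stated.

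The low values on the other side of the comparison were set beside the liver, which makes neither secretion. For 22 pancreatic enzyme and granule genes with a pancreas mean of at least 100 TPM, the parotid mean was 0.583 to 1.10% of the pancreas mean, with a median of 0.81%. In liver the same genes stood at 0.878 to 1.58%, and the parotid mean was at or below the liver mean for 22 of 22. The salivary set held 17 genes called higher in parotid as deposited, with a parotid mean of at least 100 TPM. That choice left out salivary genes that were lower or not called, and so favours a low pancreas share. For these 17 the pancreas mean was 1.17 to 32.3% of the parotid mean, with a median of 2.44% against 3.77% in liver. It was at or below the liver mean for 15 of 17. For no gene of either set did every library of the low gland exceed every liver library. The source of the low values was not tested. They are not read as expression of pancreatic enzymes in parotid or of these 17 salivary genes in pancreas, and the fold changes above are limited by them.

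Amylase is the one digestive enzyme that both glands secrete in bulk. The table holds 3 genes of the amylase locus on chromosome 1, which lie side by side in the order LOC713027, LOC114669773 and AMY2B. LOC713027 made up 85.7 to 98.6% of the summed TPM of the locus in parotid, and LOC114669773 and AMY2B made up nearly all of it in 5 pancreas libraries. LOC713027 had 11041, 31844, 18036, 10856, 5810 and 3733 TPM in the parotid of animals 1 to 6 and 139 to 517 TPM in pancreas, a log2 fold change of 5.24 (4.34 to 6.15, adjusted p = 0.000103). The tissues did not overlap.

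LOC114669773 had 68433, 48591, 10661, 420, 10919 and 27849 TPM in the pancreas of animals 1 to 6 and 81.1 to 473 TPM in parotid. It fell by 5.59 (-7.42 to -3.76, adjusted p = 0.00139), with an overlap only through animal 4. AMY2B had 340, 17002, 1832, 139, 15001 and 7424 TPM in pancreas and 134 to 309 TPM in parotid, so that the pancreas of animal 1, rich in LOC114669773, had little AMY2B. How reads shared by these neighbouring copies were divided is not stated, so the value and share of each copy are uncertain. The log2 fold change of AMY2B was -3.71 (-5.60 to -1.82, adjusted p = 0.0143). It did not pass with scaling (-2.97, adjusted p = 0.103), but did so with scaling when animal 4 was left out (-3.84, adjusted p = 0.0237). As deposited, the call was lost without animal 2 or animal 3 (adjusted p = 0.0551 and 0.0567).

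The sum over the locus did not differ detectably between the glands. It was 4356, 11514 and 32435 TPM in parotid and 754, 30892 and 69083 TPM in pancreas. The within-animal difference on the log2 scale was -0.71 ± 2.59 (SD, n = 6), lower in parotid in 4 of 6 animals (exact sign-flip permutation test, two-sided, p = 0.531, with a smallest possible p of 0.031). Without animal 4, whose pancreas had the 754 TPM, it was -1.64 ± 1.42 (n = 5, exact permutation p = 0.125). With 6 pairs and this spread, a difference of several fold would not be detected.

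**Figure D3:**
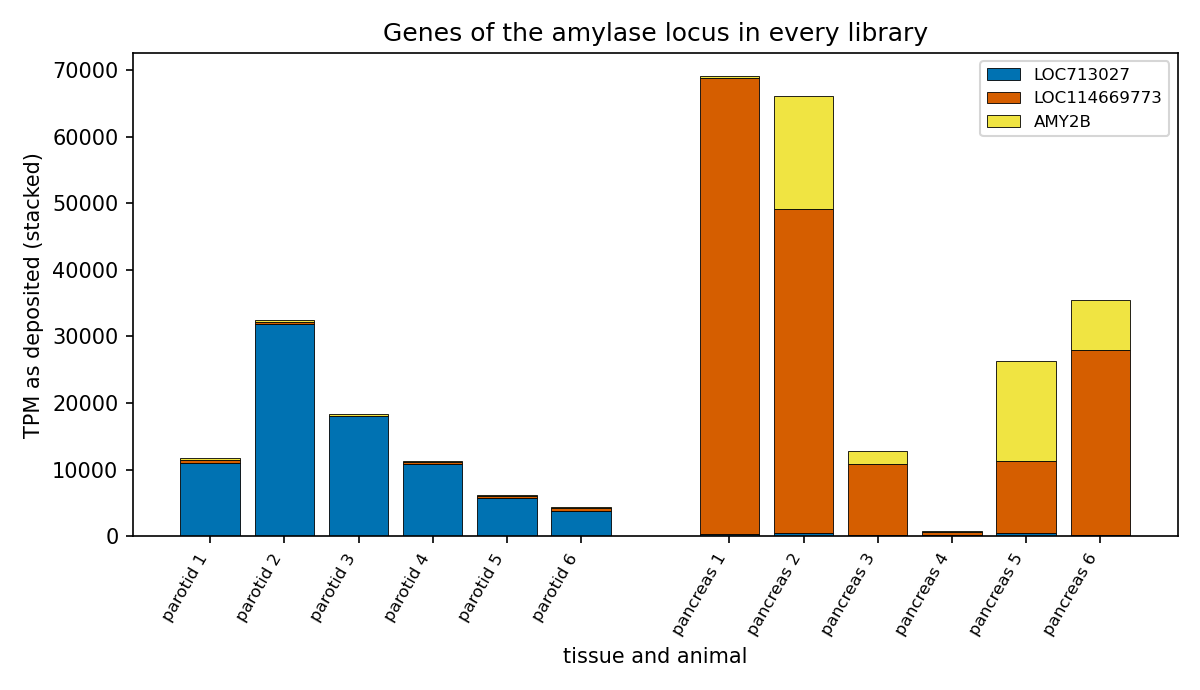
Stacked TPM of the 3 amylase locus genes in each parotid and pancreas library, animals 1 to 6 within each tissue. LOC713027 (blue) makes up 85.7 to 98.6% of the bar in every parotid library, LOC114669773 (orange) and AMY2B (yellow) nearly all of the bar in 5 pancreas libraries, and the pancreas of animal 4 reaches 754 TPM.

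Some abundant genes were shared. A median of at least 100 TPM was reached by 295 genes in parotid and 447 in pancreas, and 266 reached it in both, which is 90.2% of the parotid genes and 59.5% of the pancreas genes. Genes were then ranked by their level in whichever tissue had less, with the mitochondrial genes left out. The first 10 nuclear genes were NUPR1, TPT1, RPL41 and ZG16B, and 6 of the parotid genes above (LOC114670789, SMR3B, LOC722360, LOC107000764, LOC695018 and BPIFA2). The latter 6 stood in pancreas at about their level in liver, as above. NUPR1, a small nuclear protein induced by stress, had 1669, 5274 and 12477 TPM in parotid and 2360, 9465 and 11181 TPM in pancreas, against 1921 to 3755 TPM in liver. Its log2 fold change was -0.69 (-1.94 to 0.56, adjusted p = 0.353), and 0.05 with scaling. TPT1 and RPL41, which most cells make in quantity, did not pass at -0.57 and -1.0.

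Transcription factors of the pancreas differed in part. RBPJL, the partner of PTF1A in the complex that drives pancreatic enzyme genes, had 15.8 TPM in the pancreas of animal 4 and 398 to 1518 TPM in the others, against 2.08, 3.85 and 5.42 TPM in parotid. The tissues did not overlap, and the log2 fold change was -6.47 (-8.23 to -4.70, adjusted p = 0.000551). Liver held 3.87 to 6.95 TPM, which was no less than parotid. PDX1, needed for pancreas formation and beta cell function, had 0 to 0.139 TPM in parotid and 1.02 to 22.4 TPM in pancreas, a log2 difference of -2.92. GATA6, an endodermal factor, had 0.0365 to 0.195 TPM in parotid and 3.88 to 6.43 TPM in pancreas, a difference of -2.52. Both passed the filter through pancreas alone. In the pancreas of animal 4, GATA6 was as high as in the others at 6.43 TPM, while RBPJL and PDX1 were at their lowest.

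Of 16 pancreas transcription factors listed, 5 passed the filter, including PDX1 and GATA6. Of the other 3, 2 were lower in parotid as deposited and 1 with scaling, beside 16.5% and 7.31% of all tested genes. The 11 that did not pass include PTF1A itself, at 0.609 TPM in the pancreas of animal 4, 34.9 to 57.3 TPM in the other 5 and 0.056 to 0.360 TPM in parotid. NR5A2 had a like pattern, at 0.757 TPM in that library, 9.99 to 15.1 TPM in the others and 0.0757 to 0.301 TPM in parotid. These genes missed the filter through that single library and have no test. XBP1, which expands the secretory pathway in secretory cells, had 52.2, 77.8 and 123 TPM in parotid and 113, 454 and 576 TPM in pancreas. It fell by 2.26 (-3.11 to -1.40, adjusted p = 0.00322), and with scaling the change was -1.53 (adjusted p = 0.0718).

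BHLHA15 (MIST1), a factor of serous acinar cells in many glands, did not pass the test in either direction. It had 30.6, 90.6 and 145 TPM in parotid and 94.6, 93.9 and 95.7 TPM in the pancreas of animals 3, 5 and 6, with 187 and 176 TPM in animals 1 and 2 and 2.57 TPM in animal 4. Liver had 2.32 to 4.26 TPM. The log2 fold change was 0.16 (-1.46 to 1.78, adjusted p = 0.865), and -0.76 without animal 4 (adjusted p = 0.151). The interval is wide enough to hold a difference of several fold in either direction.

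Most tested factors of salivary and oral epithelium were higher in parotid. Of 24 listed, 14 passed the filter, 3 of them (TFAP2A, TFAP2B and ASCL3) through parotid alone. Of the other 11, 8 were higher and none lower under both scalings and with or without animal 4. Higher genes made up 2.62% of all tested genes as deposited and 7.74% with scaling, and 3.33% and 10.9% without animal 4. The median log2 fold change of these 11 was 3.05, and 3.64 with scaling. In 8 of the 11 the tissues did not overlap, against 1.43% of all tested genes that lay wholly higher in parotid.

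PAX9, a factor of the pharyngeal and oral region, had 10.1, 32.9 and 71.7 TPM in parotid and 0.946 to 1.61 TPM in pancreas, a log2 fold change of 3.83 (3.01 to 4.65, adjusted p = 0.000201). SOX10, which marks acinar and myoepithelial cells of salivary glands and also Schwann cells, had 13.0 to 57.4 TPM against 0.971 to 2.54 TPM, a change of 3.56 (adjusted p = 0.000212). The highest pancreas value for SOX10 was that of animal 4, whose Schwann cell and nerve markers summed to 1430 TPM. SPDEF, a factor of secretory epithelia, rose by 3.24, PITX1 by 3.18, FOXC1 by 3.05 and ELF5 by 2.82. BARX2 rose by 2.66. The log2 difference was 2.21 for TFAP2A and 1.67 for TFAP2B, which had 1.11 to 3.40 TPM against at most 0.107 TPM. ASCL3, a factor of salivary duct cells, had 20.4 TPM in the parotid of animal 4 and 1.93 to 7.31 TPM in the others, against at most 0.501 TPM in pancreas, a difference of 2.05.

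Some receptors for the stimuli of secretion differed. Of 20 listed, 8 passed the filter, ADRB1 through parotid alone and SCTR through pancreas alone. Of the other 6, 1 was higher and 1 lower under both scalings, with a median log2 fold change of 0.03, and 0.52 with scaling. Among all tested genes, 2.62% were higher and 16.5% lower as deposited, and 7.74% and 7.31% with scaling. A single lower gene among 6 is thus no departure from all genes as deposited. ADRB1, the beta-1 adrenergic receptor through which sympathetic nerves trigger protein secretion in the parotid, had 4.79, 7.42 and 14.2 TPM in parotid and 0.121, 0.331 and 0.989 TPM in pancreas. The log2 difference was 2.63. SCTR, the secretin receptor of pancreatic ducts, had 0.282 to 0.830 TPM in parotid and 6.39, 75.3 and 191 TPM in pancreas. The difference was -5.32.

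INSR, the insulin receptor, had 0.801 to 1.43 TPM in parotid and 1.77 to 6.18 TPM in pancreas and fell by 1.27 (adjusted p = 0.00698), a call lost with scaling when animal 6 was left out (adjusted p = 0.0753). P2RX4, a channel opened by ATP, rose by 1.28 (adjusted p = 0.0199), a call lost without any 1 of animals 1, 2 and 5 (adjusted p = 0.0759 to 0.0920). CHRM3, the muscarinic receptor that mediates cholinergic stimulation in both glands, had 0.563 to 2.56 TPM and 0.0382 to 1.35 TPM, and did not pass (0.44, -0.13 to 1.01, adjusted p = 0.214). CCKAR, a receptor for cholecystokinin, stayed under 1 TPM in all 12 libraries and was not tested. GRPR, the receptor for gastrin-releasing peptide, had 1.21 to 1.90 TPM in 5 pancreas libraries, was listed at 0 in that of animal 4 and did not exceed 0.0259 TPM in parotid, and was not tested either.

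Some calcium genes differed, in both directions. Of 15 tested, 2 were higher and 2 lower as deposited, beside 2.62% and 16.5% of all tested genes, and 4 were higher and 1 lower with scaling, beside 7.74% and 7.31%. Their median log2 fold changes were -0.23 and 0.25. STIM1, the calcium sensor of the endoplasmic reticulum, had 7.24 to 20.4 TPM in parotid and 2.92 to 11.9 TPM in pancreas and rose by 1.15 (adjusted p = 0.0439). STIM2, its paralog, had 0.338 to 1.01 TPM against 1.59 to 3.21 TPM and fell by 1.19 (adjusted p = 0.00201) with no overlap. Here too the highest parotid value only just reached 1 TPM, so the filter nearly fixed the direction. PLCB4, a phospholipase that makes inositol trisphosphate, rose by 1.49. ITPR3, an inositol trisphosphate receptor, fell by 1.06 (adjusted p = 0.0367), which did not hold with scaling (-0.55, adjusted p = 0.0595). Without any 1 of animals 1, 2, 3 and 5 the STIM1 and ITPR3 calls were lost as deposited (adjusted p up to 0.122 and 0.117). Without animal 6, 5 of the 15 were lower as deposited, beside 40.4% of all tested genes in that fit.

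Channels and transporters for water, salt and bicarbonate differed in both directions. Of 34 listed, 23 passed the filter, and 8 were higher and 6 lower as deposited, against 12 and 4 with scaling, and the medians were 0.84 and 1.49. The shares over all tested genes were 2.62% and 16.5% as deposited, against 7.74% and 7.31% with scaling. Among water channels, AQP5, through which water leaves salivary acinar cells, had 60.2, 124 and 159 TPM in parotid and 1.96, 3.57 and 7.24 TPM in pancreas. It rose by 4.52 (3.76 to 5.28, adjusted p = 0.000103), and its pancreas values lay near the 3.59 to 5.57 TPM of liver. AQP3 had 42.9 to 79.5 TPM against 1.93 to 6.40 TPM and rose by 3.87 (adjusted p = 0.000103).

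AQP8 and AQP12A, water channels of pancreatic acinar cells, showed the opposite pattern. AQP8 had 7.71 TPM in the pancreas of animal 4 and 438 to 828 TPM in the other 5, against 1.08, 3.08 and 5.28 TPM in parotid, and fell by 6.31 (-8.04 to -4.58, adjusted p = 0.000555). AQP12A had 2.51 TPM and 146 to 249 TPM in the same libraries, against 0.520 to 2.06 TPM in parotid, and fell by 5.70 (adjusted p = 0.000644). Neither overlapped between the tissues, even with animal 4 included.

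Some chloride and potassium channels known from salivary acinar cells were higher in parotid. ANO1, the calcium-activated chloride channel of the acinar apical membrane, had 8.01, 17.5 and 21.3 TPM in parotid and 0.542, 0.715 and 2.37 TPM in pancreas and rose by 2.99 (2.21 to 3.76, adjusted p = 0.000409). KCNMA1 and KCNN4, the 2 calcium-activated potassium channels of salivary acinar cells, rose by 2.91 and 3.00. LRRC26, an accessory subunit that lets the KCNMA1 channel open at low calcium, had 59.2 to 130 TPM against 2.06 to 5.01 TPM and rose by 4.21 (3.56 to 4.86, adjusted p = 8.28e-05). The values of none of these genes overlapped between the tissues.

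CFTR, the chloride and bicarbonate channel of pancreatic ducts, had 0.129 TPM in the pancreas of animal 4 and 3.65 to 6.90 TPM in the others, against 0.078 to 0.262 TPM in 5 parotid libraries and 1.00 TPM in that of animal 4. It fell by 1.81 (-2.73 to -0.90, adjusted p = 0.0135), and by 2.34 without animal 4, but was not called without animal 3 (adjusted p = 0.0661). CFTR passed the filter through 5 pancreas libraries and the parotid of animal 4, which just reached 1 TPM. Its direction was thus nearly fixed by the filter, and its p-values are weak evidence of it. It is among the transport genes counted as lower as deposited. SLC4A2, an anion exchanger, fell by 1.38 (adjusted p = 0.00768). LRRC8A, a subunit of the volume-regulated anion channel, fell by 0.94 as deposited (adjusted p = 0.0308) but not with scaling (-0.41, adjusted p = 0.176). Its call was lost without any 1 of animals 1, 2, 3 and 5 (adjusted p from 0.0614 upward). SLC4A4, the sodium bicarbonate cotransporter, had 0.444 TPM in the pancreas of animal 4, 4.87 to 10.4 TPM in the others and at most 0.163 TPM in parotid, and was not tested. SLC12A2, the cotransporter that loads salivary acinar cells with chloride, was at 0.387 to 2.00 TPM in parotid and 0.495 to 1.23 TPM in pancreas and was not tested.

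**Figure D4:**
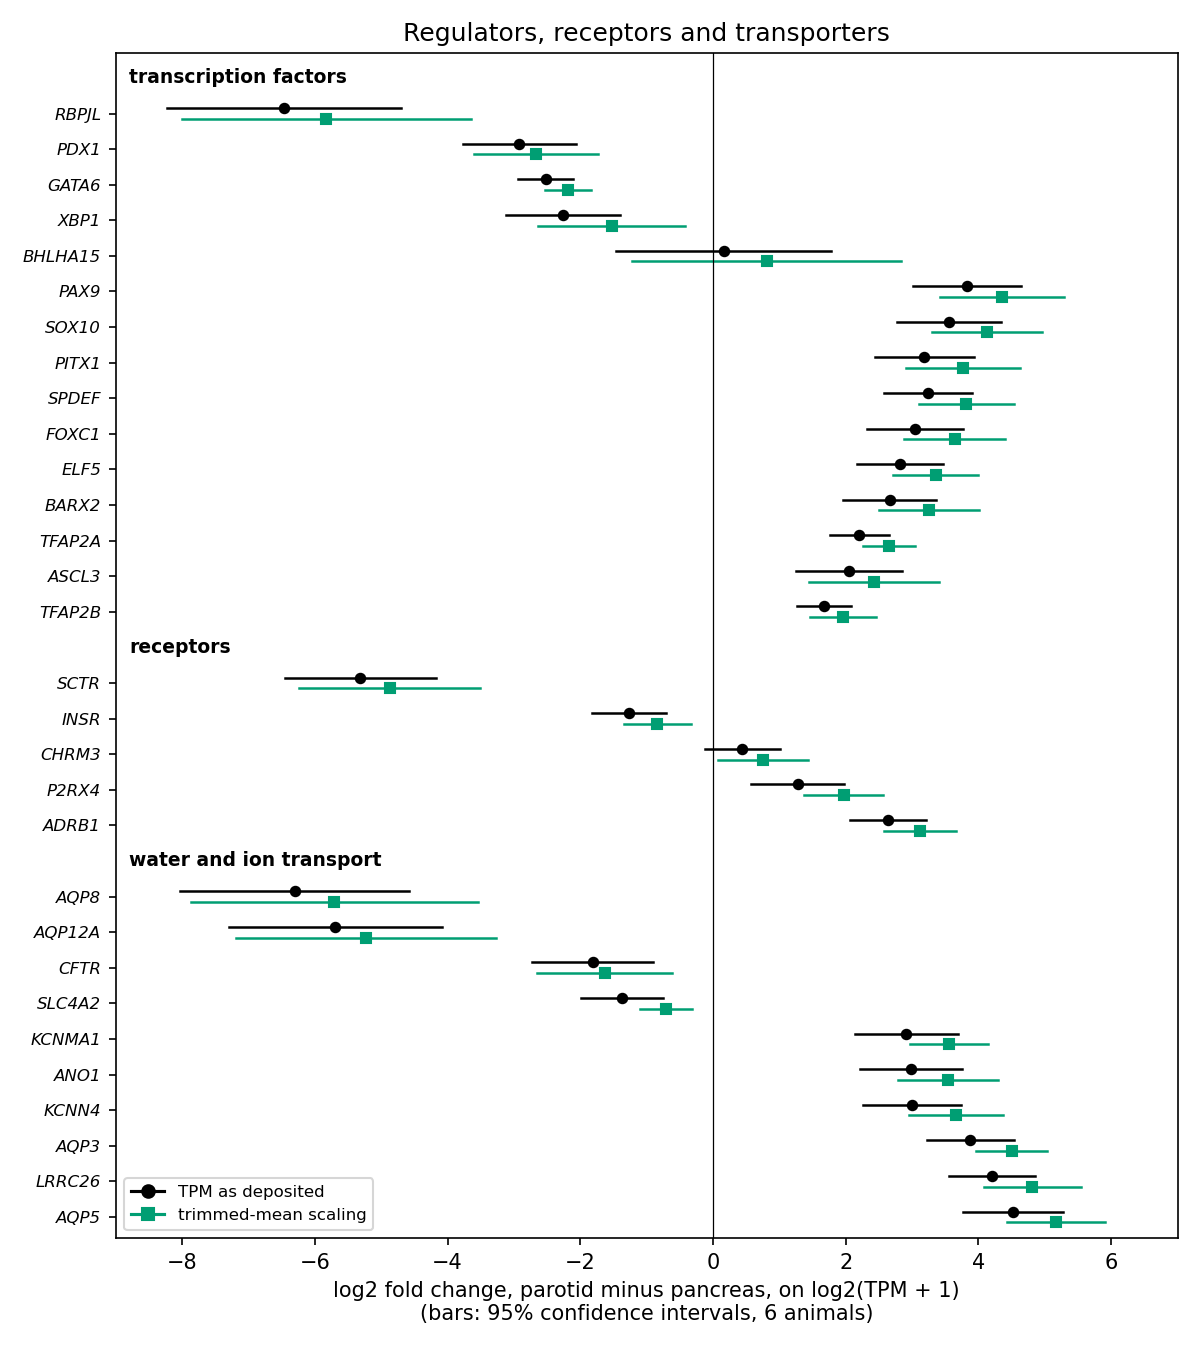
Log2 fold change (parotid minus pancreas) of 15 transcription factors, 5 receptors and 10 water and ion transport genes, with 95% confidence intervals over 6 animals, as deposited (black circles) and with trimmed-mean scaling (green squares). RBPJL, SCTR, AQP8 and AQP12A lie furthest to the pancreas side, AQP5, LRRC26, AQP3 and PAX9 furthest to the parotid side, and the interval of BHLHA15 spans 0. The filter on low values fixed the direction of PDX1, GATA6, TFAP2A, TFAP2B, ASCL3, SCTR and ADRB1, so their intervals are no test of it.

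The number of called genes of the shared secretory machinery depended on the scaling. Of 49 genes for entry into the endoplasmic reticulum and folding there, all passed the filter, and 24 were lower and none higher in parotid as deposited. With scaling 6 were lower and 1 higher, and the median moved from -0.88 to -0.16, beside medians over all tested genes of -0.54 and 0.04. The shares of all tested genes that were lower were 16.5% as deposited and 7.31% with scaling. The 6 genes lower under both scalings were ERO1B, SEL1L, SDF2L1, PDIA4, HYOU1 and HSP90B1. SEC62, a component of the translocation channel, was the gene higher with scaling (1.04, adjusted p = 0.0136).

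ERO1B, the oxidase that forms disulfide bonds in pancreatic secretory cells, had 2.26, 3.18 and 4.44 TPM in parotid and 58.8 to 72.7 TPM in 5 pancreas libraries, with 3.91 TPM in that of animal 4. It fell by 3.35 (-4.56 to -2.14, adjusted p = 0.00244), and by 2.75 with scaling. SEL1L, which takes misfolded proteins to degradation, fell by 2.70, and SDF2L1, a cochaperone, by 2.07 (by 1.36 with scaling). PDIA4, a disulfide isomerase, had 3.31 to 5.76 TPM against 8.60 to 38.2 TPM and fell by 1.91 (adjusted p = 0.00181). HSP90B1 fell by 1.52, a call lost without any 1 of animals 1, 3 and 5 (adjusted p = 0.0572 to 0.0750), and HYOU1 by 1.40. SSR4, a translocon subunit, had 98.1 to 155 TPM in parotid and 236 to 621 TPM in pancreas and fell by 1.88 (adjusted p = 0.00405), and with scaling it was at -1.14 (adjusted p = 0.107).

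Other parts of the secretory pathway differed in few genes. Of 9 unfolded protein response genes tested, 2 were lower as deposited and 0 with scaling by limma, where 2 had an unadjusted p under 0.05. Of 21 genes for granule exocytosis, SNAP25 passed the filter through pancreas alone. Of the other 20, 1 was lower as deposited and 0 with scaling by limma, where 4 had an unadjusted p under 0.05. Over all tested genes, 16.5% were lower as deposited and 7.31% with scaling. The medians of the 9 and of the 20 as deposited, -0.52 and -0.56, lay near that of all tested genes. SNAP25, a fusion protein of neurons and endocrine cells, had 0 to 0.161 TPM in parotid and 1.18 to 12.3 TPM in pancreas, its highest value being in the islet-rich pancreas of animal 3. RAB27A, a granule GTPase, fell by 1.03 (adjusted p = 0.0328), but not with scaling (-0.45, adjusted p = 0.418) or without any 1 of animals 1, 2, 3 and 5 (adjusted p = 0.0642 to 0.133). Of the 20, the number lower as deposited was 4 without animal 4 and 3 without animal 6, beside 14.6% and 40.4% of all tested genes. VAMP8, the granule fusion protein of exocrine acinar cells, had 90.5, 173 and 256 TPM in parotid and 56.4, 102 and 130 TPM in pancreas, and did not pass (0.72, -0.09 to 1.52, adjusted p = 0.164).

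Of 33 genes for translation initiation and tRNA charging, 15 were in the table under the listed names, and none was called by limma as deposited, with 1 at an unadjusted p under 0.05 and a median of -0.42. With scaling EIF4EBP1 (1.31, adjusted p = 0.0153) and EIF4B (0.91, adjusted p = 0.0418) were higher, EIF4B no longer without animal 4 (adjusted p = 0.0598). Higher genes made up 7.74% of all tested genes with scaling. As deposited, 3 of the 15 were lower without animal 6, beside 40.4% of all tested genes in that fit. Of 21 genes for amino acid uptake and synthesis, 8 were lower as deposited, and 2 with scaling, beside 16.5% and 7.31% of all tested genes. The medians of the 21 were -0.67 and -0.30. With scaling and without animal 4, 6 were lower and 1 higher, beside 10.2% and 10.9% of all tested genes. The 2 lower with scaling were CBS, an enzyme of cysteine synthesis, which fell by 3.49 (adjusted p = 0.00384), and SLC16A10, a transporter of aromatic amino acids, which fell by 2.41 (adjusted p = 0.00229). SLC43A1, a transporter of large neutral amino acids, had 4.92 to 6.43 TPM against 11.4 to 29.0 TPM and fell by 1.63 (adjusted p = 0.00460), and with scaling it was at -0.97 (adjusted p = 0.0888). GATM, which starts creatine synthesis and is abundant in pancreas, had 14.4 to 613 TPM there and 23.7 to 179 TPM in parotid. It did not pass (-1.69, adjusted p = 0.0752), but did so without animal 4 (-2.38, adjusted p = 0.00163).

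**Figure D5:**
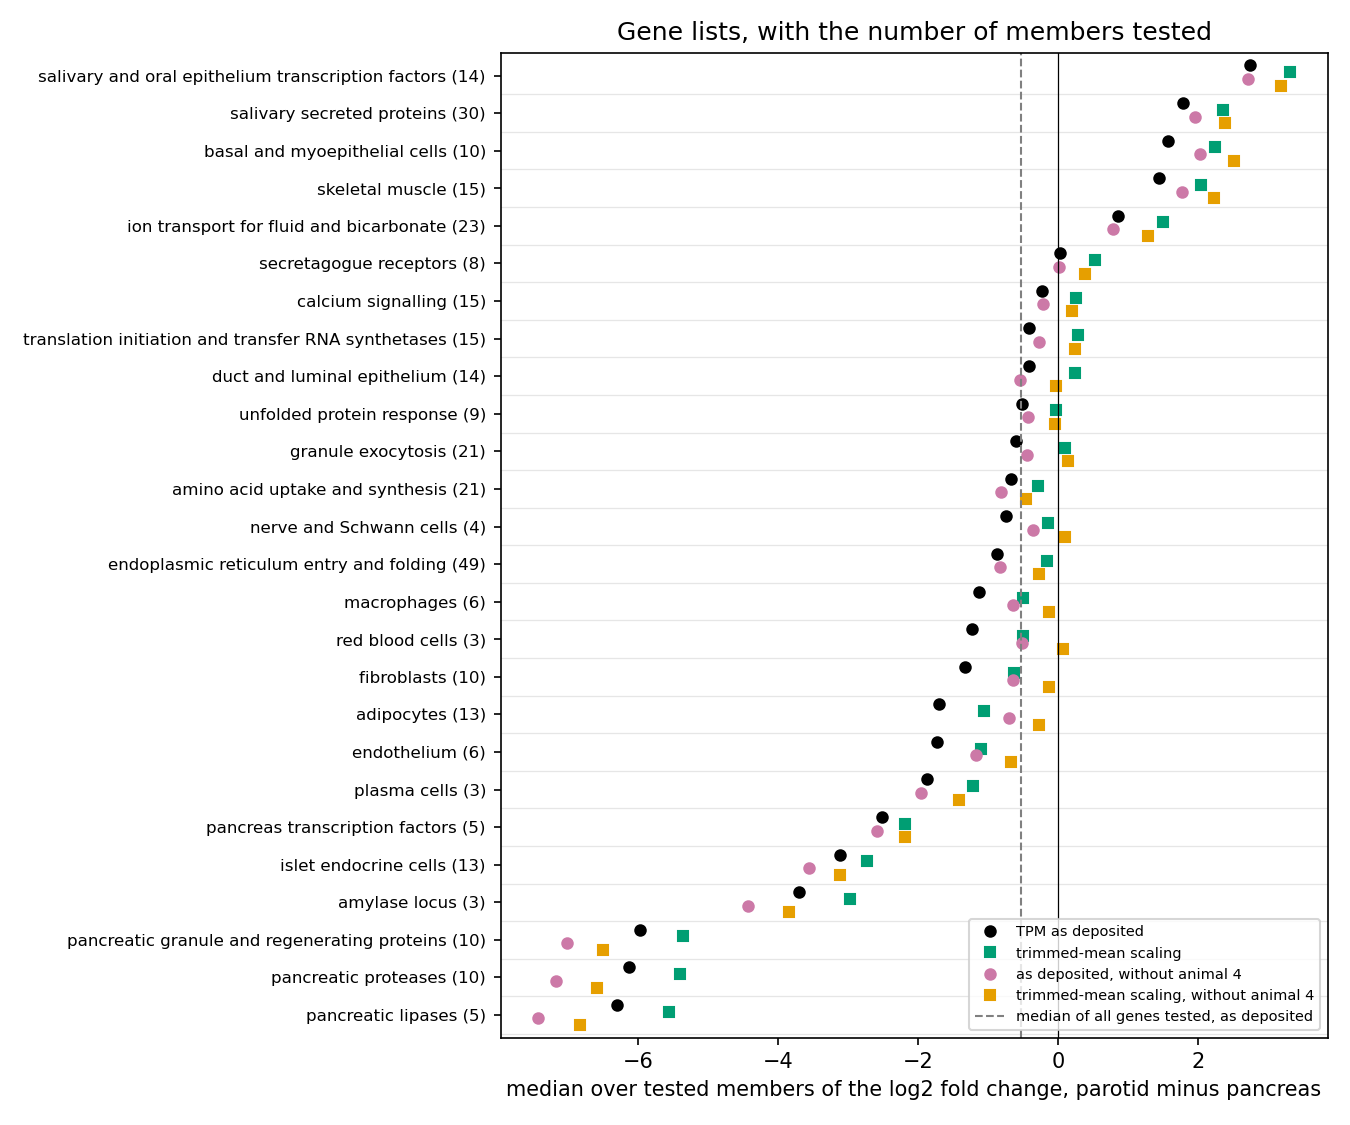
Median log2 fold change (parotid minus pancreas) over the tested members (those whose direction the filter fixed included) of 26 gene lists (member numbers in brackets), as deposited (circles) and with trimmed-mean scaling (squares), each with all 6 animals and without animal 4. The dashed line marks the median of all tested genes as deposited, -0.54. The unfolded protein response, granule exocytosis and translation lists lie near it as deposited, at -0.52, -0.60 and -0.42. Endoplasmic reticulum entry and folding lies lower, at -0.88. With scaling these 4 medians are -0.04, 0.09, 0.28 and -0.16. The 3 lists of pancreatic secreted proteins lie below -5 in every version.

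Cells that only one of the organs holds formed a further part of the contrast. Of 28 islet cell genes listed, 13 passed the filter, 3 of them (PPY and ISL1 included) through pancreas alone. Of the other 10, 9 were lower in parotid under both scalings and with or without animal 4, and the median log2 fold change of the 10 was -3.46. Lower genes made up 16.5% of all tested genes as deposited and 7.31% with scaling, and 14.6% and 10.2% without animal 4. INS, insulin, had 408 TPM in the pancreas of animal 4, 127239 TPM in that of animal 3 and 6281 to 11444 TPM in the other 4, against 28.7, 54.5 and 339 TPM in parotid. It fell by 6.78 (-8.49 to -5.06, adjusted p = 0.000372), and liver held 42.8 to 413 TPM. GCG (glucagon) fell by 6.30, IAPP (islet amyloid polypeptide) by 6.23 and SST (somatostatin) by 5.93. PPY (pancreatic polypeptide) differed by -2.87. ISL1, an islet transcription factor, had at most 0.0662 TPM in parotid and 1.01 to 6.71 TPM in pancreas, a difference of -1.75. TTR, made in islets and above all in liver, had 56.0 to 93.6 TPM in parotid and 142 to 4425 TPM in pancreas and fell by 3.59.

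Some duct markers differed, in both directions. Of 14 duct and luminal genes tested, 3 were higher and 2 lower in parotid under both scalings. Beside these stand 2.62% and 16.5% of all tested genes as deposited, and 7.74% and 7.31% with scaling. The medians of the 14 were -0.42 and 0.24. MUC1, a mucin of the apical membrane, had 0.221 to 1.24 TPM in parotid and 2.51, 41.5 and 46.8 TPM in pancreas and fell by 4.06 (adjusted p = 0.000793). SPP1, osteopontin, had 0.506 to 1.58 TPM against 14.0 to 79.8 TPM and fell by 4.46 (adjusted p = 0.000103). KRT23, a keratin, had 26.4, 49.5 and 83.3 TPM in parotid against 2.28 to 4.32 TPM in pancreas and rose by 3.57 (adjusted p = 0.000161). The tight junction genes CLDN4 and CLDN8 rose by 1.73 and 1.18, the latter a call lost without any 1 of animals 2, 3 and 5 (adjusted p = 0.0553 to 0.0766). Without animal 4, 5 of the 14 were lower as deposited, beside 14.6% of all tested genes.

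Of 10 basal and myoepithelial genes tested, 5 were higher as deposited and 7 with scaling, beside 2.62% and 7.74% of all tested genes. The medians of the 10 were 1.56 and 2.23. Without animal 4 all 10 were higher under both scalings, beside 3.33% of all tested genes as deposited and 10.9% with scaling. KRT14, a keratin of basal and myoepithelial cells, had 49.3, 59.3 and 109 TPM in parotid and 4.80 to 10.2 TPM in pancreas and rose by 3.01 (2.35 to 3.67, adjusted p = 0.000211). KRT5 rose by 1.87 (not called with all 30 libraries in the fit, adjusted p = 0.0591), KRT15 by 2.02, KRT17 by 2.12 and DST by 0.76, of which DST was lost without any 1 of animals 1, 2, 3 and 5 (adjusted p = 0.0857 to 0.117). ACTA2, shared by myoepithelial cells and the smooth muscle of vessels, had 42.0 to 57.7 TPM in parotid and 5.65 to 45.4 TPM in 5 pancreas libraries, but 714 TPM in that of animal 4.

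Markers of cells that both organs can hold moved less, or with single libraries. Among 6 endothelial genes tested, 3 were lower in parotid as deposited (PLVAP by 2.95, PECAM1 by 1.81 and EMCN by 1.74) and 1, PLVAP, with scaling (adjusted p = 0.00816). Over all tested genes, 16.5% were lower as deposited and 7.31% with scaling. The PECAM1 and EMCN calls were also lost without any 1 of animals 1, 2 and 3 (adjusted p up to 0.154 and 0.116). The 10 endothelial markers in the table summed to 8.66 to 22.8 TPM in parotid and 41.6 to 152 TPM in pancreas, with 709 TPM in that of animal 4. LUM, a matrix proteoglycan, was the gene lower in parotid among 10 fibroblast genes tested (-2.12, adjusted p = 0.00627). Of 3 plasma cell genes tested, DERL3 (-2.95) and TXNDC5 (-1.88) were lower, not so with scaling when animal 6 was left out (adjusted p = 0.0823 and 0.0639), and both also serve the endoplasmic reticulum of other secretory cells.

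None of the 13 adipocyte, 6 macrophage, 4 nerve or Schwann cell and 3 red blood cell genes tested was called by limma under either scaling with all animals. At an unadjusted p under 0.05 as deposited, the numbers were 1, 5, 0 and 0, and with scaling 0, 0, 1 and 0. Nor was CD3E, the single lymphocyte gene tested. Without animal 6, as deposited, 5 macrophage, 1 adipocyte, 3 red blood cell, 1 nerve or Schwann cell, 5 endothelial and 6 fibroblast genes were lower in parotid, beside the 40.4% of all genes lower in that fit. Of 15 skeletal muscle genes, 0 were called as deposited (1 at an unadjusted p under 0.05) and MB, myoglobin, with scaling (3.38, adjusted p = 0.0434). MB had 8992 TPM in the parotid of animal 6 and 54.1 to 279 TPM in the others. The part of fat, blood or muscle in any other result was not tested beyond the values given without animal 4 or animal 6.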

How the data were processed

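RNA sequencing of parotid and pancreas of 6 animals was analysed. The authors deposited 1 table of TPM values (21292 gene names, 30 library columns, 0 of them unused). Per the submitters' processing notes, kallisto was among the tools. Its version, the genome build and annotation, and the summing of transcripts to genes are not given in the sources used here. Since TPM do not keep read numbers, depth is unknown, and nothing that needs it is given.

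Of these genes, 10453 reached 1 TPM in 6 or more of the 12 libraries. They entered a linear model of log2(TPM + 1) in limma (version 3.58.1, R 4.3.3) with tissue and animal as terms and a variance trend. P-values were two-sided and Benjamini-Hochberg adjusted over all tested genes, with a threshold of 0.05. Fold changes on this scale understate the change of low genes, and intervals are 95%. Trimmed-mean factors were unweighted, with 30% of log ratios and 5% of levels trimmed at each end. The amylase locus sum was tested over 64 sign patterns. Pairing rests on the animal numbers in the labels: deviations from the tissue means correlated by 0.0252 to 0.508 within animals (mean 0.213, over 0.1 in 4 of 6 pairs), against a mean of -0.0322 between animals. Each animal is a biological replicate, and 0 pairs of libraries were identical. In simulated data for this comparison over 10453 genes, 100 genes were changed by 2 and 100 by 4 on the log2 scale. Noise was normal and independent with each gene's own spread, and neither a fixed total nor outlying libraries were simulated. There 80% of genes changed by 2 and 99% of those changed by 4 were called in the right direction, and 8.21% of calls were false. These rates need not hold for the calls above.

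Named genes are members of lists (called members with the largest change, and abundant ones). The 10 largest rises and 10 largest falls are named among genes called, alike in 6 of 6 animals and averaging 100 TPM or more where higher. The 10 nuclear genes most abundant in both tissues are named as well. The members and lists were chosen with earlier results of these data known. RefSeq names (assembly T2T-MMU8v2.0) matched 19177 of the symbols, and no coordinates or sequences are printed. Alternatives were no animal block, other scalings, filters, pseudocount and variance models, all 30 libraries, and leaving out each animal. Leaving out animals 4 and 6 together, and animal 6 with scaling, was added after seeing the data.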

Additional observations from a re-analysis of the deposited data

Results flagged for a closer look

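Outlying libraries were sought in 62 sets of 6 libraries, on the log2 summed TPM of each list and of the amylase genes in each tissue. By Dixon's criterion, 15 sets held a library far from the others. About 1 set in 20, or 3.1 of 62, would be picked out by chance if the sets were independent. They share libraries and some genes, so the 15 cannot be weighed against that number. In 10 of the 15 the library was the pancreas of animal 4. There the sums were 3386 TPM for proteases (next library 156155 TPM), 2007 TPM for lipases (97184), 662 TPM for granule and regenerating proteins (15491), 144 TPM for pancreas transcription factors (1238) and 169 TPM for duct genes (377). It also stood apart for LOC114669773, at 420 TPM (next 10661), and for the amylase locus sum, at 754 TPM (next 12746). It was high for basal and myoepithelial genes at 1409 TPM (89.2), red blood cells at 13969 TPM (469) and fibroblasts at 1767 TPM (304).

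In 4 sets the library was the parotid of animal 6, at 172370 TPM for salivary secreted proteins (next 312390), 230341 TPM for the 5 chromosome 11 genes (497964), 31.4 TPM for plasma cell genes (43.6) and 608 TPM for amino acid uptake and synthesis (322). The pancreas of animal 1 was highest for salivary secreted proteins at 15509 TPM (next 13252). In 1 of 31 sets, that of lymphocyte genes, both males moved one way and all 4 females the other: the difference between the sexes in parotid minus pancreas was 2.45 on the log2 scale, and this difference was not tested.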

How the results depend on the processing

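Of 130 genes given with a fold change, 115 were called as reported, and no called gene changed direction under any of the 19 alternatives run, of which the filter of at least 5 TPM covered 100 of these genes. Calls depend on the scaling: 1275 genes were called relative to all genes except the 100 most abundant (660 higher, 615 lower) and 1739 with quantile normalisation (838 higher, 901 lower), against 274 higher and 1726 lower as deposited. A filter of at least 5 TPM gave 1025 calls, and 806 with scaling. Leaving out 1 animal gave 1022 to 4537 calls, and 848 to 2207 with scaling; without animals 4 and 6 there were 4343. The fit with no replicate block called 2011 genes, 1824 of them the same, and ended the named calls of ITPR3 and DST. The amylase sum moved to 0.025 with scaling (exact permutation p = 0.938) and to 0.00083 relative to all but the 100 most abundant genes (p = 1), and without single animals ranged from -1.64 to -0.25. Changed signs concerned genes not called as reported: KLK1 0.63 (quantile) and 0.55 (scaling without animal 6), MUC7 -0.22 without animal 2 (range without single animals -0.22 to 0.46), BHLHA15 -0.76 without animal 4 (range -0.76 to 0.52), -0.17 (also scaled) and -0.55 (without animals 4 and 6), NUPR1 0.049 (scaled), 0.88 (quantile), 0.025 (top 100 left out) and 0.42 (scaled without animal 6), TPT1 0.17, 1.22 (adjusted p = 0.0342 in limma), 0.15 and 0.11 under the same alternatives and 0.052 scaled without animal 4, and RPL41 0.53 (quantile). The cause was not tested. Depth is unknown, and the level seen in liver limits low values.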
